A study of Saccharomyces cerevisiae with 14 samples.

Results

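The comparison set budding yeast (Saccharomyces cerevisiae) kept for 4 h after ethanol was added against untreated cells of the same strain, over all genes of the count table. It used 4 of the series' 14 libraries: 2 of ethanol-treated cells at 4 h and 2 of untreated cells at 0 h. Of the table's 6670 identifiers, 6337 passed a filter on low counts and were tested. Every library came from the genotype labelled Z3EVpr-SWI4. The name gives SWI4, which encodes the DNA-binding subunit of the G1/S transcription factor SBF, a synthetic promoter that an estradiol-activated factor drives. The controls carry this construct too, and no group lacks it. The medium was given as synthetic complete with 2% glucose for every library, and the glucose left in the cultures at 4 h is not given. Ethanol is the solvent of estradiol and served as the mock induction. Further comparisons used ethanol-treated cells at 1 and 2 h and cells induced for 4 h with beta-estradiol at 5 nM. Every later library had received ethanol, so the solvent and the time elapsed cannot be told apart. Nothing in the labels makes the replicates separate cultures. The p-values therefore measure only the spread between replicate libraries, which may be technical. That spread was estimated over all 14 libraries and not over the 4 compared alone.

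As background, yeast in plentiful glucose ferments, grows fast and represses genes for respiration, high-affinity glucose uptake and storage carbohydrates. The stress factors Msn2 and Msn4 bind a short element, AGGGG, in front of genes for chaperones, antioxidants, trehalose and glycogen. The Hap2/3/4/5 complex binds CCAAT in front of respiratory genes, and the PAC element, GATGAG, lies in front of genes that build ribosomes.

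The libraries compared were about equally deep. Replicates 1 and 2 held 12262238 and 16212966 counted reads in ethanol at 4 h, against 12312060 and 17314913 in untreated cells. The ethanol libraries at 1 and 2 h were shallower, at 3469868 to 5698712 reads. Levels below are in CPM, read counts relative to the size of the library and scaled by TMM factors, always with replicate 1 before replicate 2, and fold changes are on the log2 scale, ethanol 4 h over untreated, with n = 2 in each group. Transcripts specific to a cells summed to 1486 and 1638 CPM over 7 genes in ethanol at 4 h, against 1575 and 1399.8 CPM in untreated cells. The 4 alpha-specific genes summed to 24.9 and 21.9 CPM in ethanol at 4 h, against 23.5 and 23.5 CPM in untreated cells. The replicates were not alike along one axis that ran through all groups. On the first principal component the ethanol libraries at 4 h stood at 3.58 and -19.8, against 13.5 and 26.9 for untreated cells, so the spread between replicates lay partly along the direction that separates the groups. Its part in the results was not tested beyond the settings given at the end.

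SWI4 itself and CLN3, WHI5, CLN1 and CLN2 of the G1/S circuit did not pass the test. SWI4 (YER111C) stood at 23 and 12.1 CPM in ethanol at 4 h, against 17.9 and 20.7 CPM in untreated cells. The groups overlapped, with a log2 fold change of -0.14 (SE 0.38, edgeR adjusted p = 0.872). CLN3 (YAL040C), the G1 cyclin that acts upstream of SBF, stood at 62 and 54.1 CPM in ethanol at 4 h, against 57.2 and 57.3 CPM in untreated cells. WHI5 (YOR083W), the repressor of SBF, stood at 10.2 and 14.8 CPM in ethanol at 4 h, against 10.4 and 8.35 CPM in untreated cells. The groups overlapped for both. They did so for the SBF-driven G1 cyclin CLN2 (YPL256C) as well, at 90.2 and 78.8 CPM in ethanol at 4 h and 84.1 and 92.9 CPM in untreated cells. Its sister CLN1 (YMR199W) stood higher without passing, at 65.2 and 57.8 CPM in ethanol at 4 h, against 38.3 and 44.1 CPM in untreated cells (log2 fold change 0.58, edgeR adjusted p = 0.125). None of the 9 SBF regulon cyclins and regulators, the 15 SBF regulon cell surface genes, the 30 MBF regulon replication and repair genes or the 8 core histone genes passed edgeR's test. Unadjusted p-values were under 0.05 for 3, 1, 2 and 0 of them in that order, and for 1097 of all 6337 genes tested.

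Genes that rose after 4 h of ethanol included members of glucose uptake, storage carbohydrate, stress protection and respiration lists. A smaller number fell, among them a phosphate transporter gene and a few genes that act on ribosomes. At an adjusted p under 0.05, 110 of 6337 genes were called (1.74%), 92 of them higher (1.45%) and 18 lower (0.284%). Of these, 85 differed by more than 2-fold, and both ethanol libraries lay beyond both untreated libraries for all 110. Non-overlap alone was common, at 29.5% of all genes higher and 30.8% lower. The median log2 fold change of all genes was -0.02, with 3030 of them positive and 3307 negative. Scaling by library totals alone gave 90 higher and 4 lower, of which 47 were among the 110, so the direction split depends on the scaling. Many calls were lost when a single library was left out. That leaves its group with 1 library, so a lost call does not show that the omitted library made the difference. YRO2, for 1, lost its call without either untreated library, while its log2 fold change stayed between 1.47 and 1.60 over the 15 other settings. Without replicate 1 or replicate 2 of ethanol at 4 h, 71 and 26 genes were called, and without replicate 1 or replicate 2 of untreated cells 14 and 10 were. With any 1 of these 4 libraries left out 9 genes were still called: HXK1, RGI1, GSY2, YGP1, YBR032W, PHO89, YOL014W, YFR052C-A and YER067C-A.

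**Figure D1:**
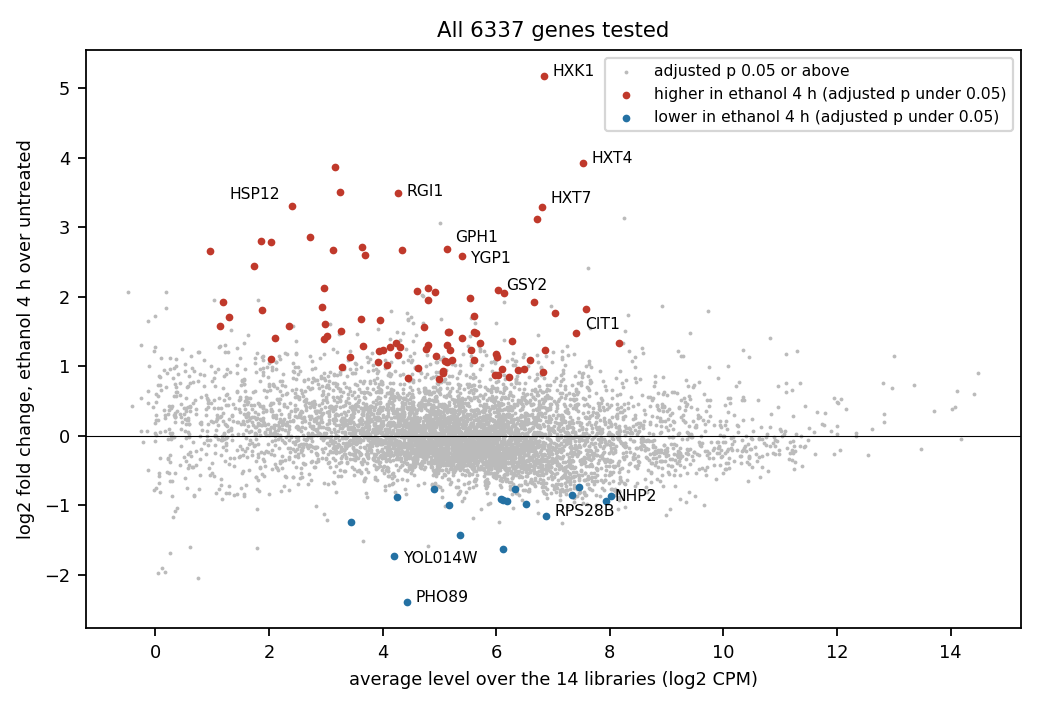
Log2 fold change of ethanol at 4 h over untreated cells (vertical axis) against the average level over 14 libraries (horizontal axis, log2 CPM), with 1 point for each of the 6337 genes tested. Red points are the 92 genes called higher and blue points the 18 called lower, and HXK1 stands farthest up at 5.17 while PHO89 stands farthest down at -2.39.

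The steepest increases were those of a glucose-repressed hexokinase gene and a high-affinity glucose transporter gene. HXK1 (YFR053C), a hexokinase isoenzyme, stood at 175 and 266 CPM in ethanol at 4 h, against 6.88 and 5.41 CPM in untreated cells. Both ethanol libraries were far above both untreated ones, a rise of 5.17 on the log2 scale or 36-fold (SE 0.42, edgeR adjusted p = 0.000215). HXT4 (YHR092C), a high-affinity glucose transporter, had 325 and 505 CPM in ethanol at 4 h, against 31.3 and 23.3 CPM in untreated cells, without overlap (15.2-fold, log2 fold change 3.93, SE 0.45, edgeR adjusted p = 0.00145). The adjacent transporter genes HXT6 and HXT7 read 153 and 287 CPM and 165 and 311 CPM in ethanol at 4 h, against 28.5 and 22.3 CPM and 28.2 and 20.5 CPM in untreated cells. Their reading frames are identical at 1710 of 1713 bases in the R64 sequence, so how reads were divided between them is uncertain and they are best read as 1 signal. MTH1 (YDR277C), which works with the repressor Rgt1 in glucose sensing, rose by 1.49 (SE 0.23), with 39.2 and 46.1 CPM in ethanol at 4 h and 16.3 and 14.2 CPM in untreated cells. These were the 5 of 20 genes of hexose transport, phosphorylation and glucose sensing that rose, and none fell. The list's median was 0.53 against -0.02 for all genes, of which 1.45% were called higher. Without replicates 1 and 2 of ethanol at 4 h the list held 5 and 3 calls, and without replicates 1 and 2 of untreated cells 2 and 1.

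Other members of the same list did not pass. GLK1 (YCL040W), the glucokinase gene, had 244 and 624 CPM in ethanol at 4 h, against 55.9 and 42.7 CPM in untreated cells. The groups did not overlap, but the ethanol replicates lay far apart and the log2 fold change of 3.14 (SE 0.76) had an edgeR adjusted p of 0.0646. The low-affinity transporter gene HXT1 (YHR094C) overlapped between groups, at 287 and 447 CPM in ethanol at 4 h and 420.0 and 349 CPM in untreated cells. HXK2 (YGL253W), the main hexokinase gene on glucose, overlapped as well, at 1084 and 1511 CPM in ethanol at 4 h and 1189 and 1001 CPM in untreated cells.

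**Figure D2:**
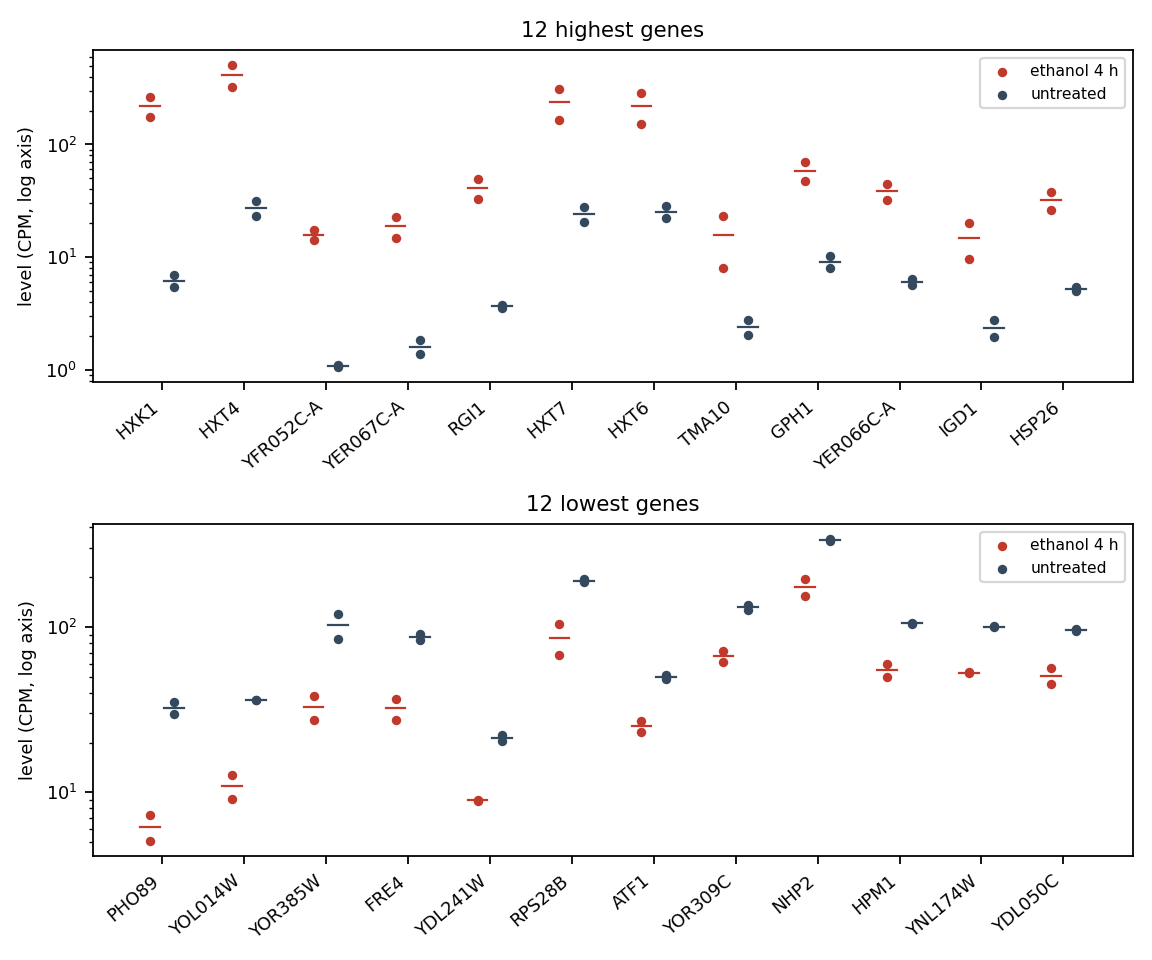
Level in each library (CPM, log axis) of the 12 called genes with the highest and the 12 with the lowest log2 fold change among those with an average log2 CPM of at least 3, with ethanol at 4 h in red left of untreated cells in dark grey. Each point is 1 library and each bar the mean of 2, and the red and grey points do not overlap for any gene shown.

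Of 19 genes that make and use glycogen and trehalose, the storage sugars of yeast, 8 rose and none fell. Of all genes tested 1.45% were called higher. The list's median log2 fold change was 0.83. GSY2 (YLR258W), the main glycogen synthase, had 93.5 and 106 CPM in ethanol at 4 h, against 23.1 and 23.8 CPM in untreated cells. Its replicates were close together in both groups, which differed 4.25-fold (log2 fold change 2.09, SE 0.18, edgeR adjusted p = 0.000215). Its isoenzyme GSY1 (YFR015C) rose by 2.12 (SE 0.30), to 34.2 and 62.1 CPM in ethanol at 4 h, against 12 and 10.2 CPM in untreated cells. GPH1 (YPR160W), the phosphorylase that degrades glycogen, had 47.2 and 69.7 CPM in ethanol at 4 h, against 10.3 and 7.98 CPM in untreated cells. It rose by 2.68 (SE 0.35, edgeR adjusted p = 0.00292), so genes for synthesis and for breakdown were both among those higher. PGM2 (YMR105C), the phosphoglucomutase that supplies both sugars, stood at 54.4 and 73.7 CPM in ethanol at 4 h and 17.2 and 15.2 CPM in untreated cells (log2 fold change 1.99, SE 0.28). The others called were the glycogen branching enzyme gene GLC3 at 1.34, the glycogenin gene GLG1 at 1.67, and the trehalose synthase subunit genes TSL1 at 2.06 and TPS2 at 1.23. The trehalases NTH1 at 0.51 and ATH1 at 0.03 did not pass, with edgeR adjusted p-values of 0.202 and 0.96. Leaving out ethanol 4 h replicate 1 or 2 left 8 and 5 calls on the list, and leaving out untreated replicate 1 or 2 left 2 and 1. IGD1 (YFR017C), an inhibitor of the glycogen debranching enzyme that is on no list, rose by 2.67 (SE 0.57). It read 9.56 and 19.96 CPM in ethanol at 4 h and 2.75 and 1.94 CPM in untreated cells, and lost its call without ethanol 4 h replicate 2 or either untreated library.

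Of 30 genes known to be under Msn2 and Msn4, 28 were tested, 9 rose and none fell, beside 1.45% of all genes tested called higher. All 28 fold changes were positive, with a median of 1.09. YGP1 (YNL160W), a secreted glycoprotein gene, had 117 and 151 CPM in ethanol at 4 h, against 22.7 and 21.8 CPM in untreated cells (6.02-fold, log2 fold change 2.59, SE 0.23, edgeR adjusted p = 0.000215). HSP26 (YBR072W), a small heat shock protein, stood at 26.1 and 37.6 CPM in ethanol at 4 h and 5.02 and 5.41 CPM in untreated cells, a rise of 2.61 (SE 0.38). Neither gene's groups overlapped. HSP12 (YFL014W), a membrane-protecting heat shock protein, rested on few reads: 32 and 53 in ethanol at 4 h, against 5 and 4 in untreated cells. That was 2.28 and 3.64 CPM in ethanol at 4 h and 0.405 and 0.210 CPM in untreated cells (log2 fold change 3.30, SE 0.46, edgeR adjusted p = 0.0042). HOR7 (YMR251W-A), known from the response to high osmolarity, read 135 and 168 CPM in ethanol at 4 h and 43.2 and 45.7 CPM in untreated cells, a rise of 1.77 (SE 0.28). TMA10 (YLR327C), a ribosome-associated protein gene, rose by 2.72 (SE 0.49), at 7.99 and 23.3 CPM in ethanol at 4 h, with wide spread between replicates, and 2.75 and 2.05 CPM in untreated cells. The others that passed were RTC3, PNC1, DCS2 and MSC1, at log2 fold changes of 1.96, 1.82, 1.40 and 1.08. The cytosolic catalase gene CTT1 did not pass (24.3 and 35.3 CPM in ethanol at 4 h, 14.6 and 13.3 CPM in untreated cells, edgeR adjusted p = 0.0659). Without ethanol 4 h replicate 1 or 2 the list had 9 and 2 calls, and without untreated replicate 1 or 2 it had 2 and 1. MSN4 (YKL062W) itself rose by 1.23 (SE 0.18, edgeR adjusted p = 0.00485), with 55.2 and 61.8 CPM in ethanol at 4 h and 26.9 and 22.9 CPM in untreated cells, though without ethanol 4 h replicate 2 or either untreated library it was not called.

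RGI1 (YER067W), a small protein needed for energy metabolism under respiratory conditions, was on no list and was among the steepest. It had 32.7 and 49.5 CPM in ethanol at 4 h, against 3.72 and 3.57 CPM in untreated cells (11.3-fold, log2 fold change 3.49, SE 0.39, edgeR adjusted p = 0.00139). The 300 bases before its reading frame hold AGGGG 3 times, and those of HSP12 hold it 2 times as the reverse complement CCCCT. These windows are shown because both genes are among the higher ones and differ in where and how the element lies. They are the R64 reference sequence from RefSeq, printed 5′ to 3′ along the gene with the element in capitals, RGI1 from chrV:291766-292065 and HSP12 from chrVI:106956-107255, both on the plus strand.
RGI1: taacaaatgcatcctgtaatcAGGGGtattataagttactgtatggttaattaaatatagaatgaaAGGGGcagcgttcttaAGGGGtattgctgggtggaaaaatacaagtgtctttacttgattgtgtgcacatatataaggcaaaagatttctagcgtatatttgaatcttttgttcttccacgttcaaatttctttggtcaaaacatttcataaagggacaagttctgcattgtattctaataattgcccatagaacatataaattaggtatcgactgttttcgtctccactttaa
HSP12: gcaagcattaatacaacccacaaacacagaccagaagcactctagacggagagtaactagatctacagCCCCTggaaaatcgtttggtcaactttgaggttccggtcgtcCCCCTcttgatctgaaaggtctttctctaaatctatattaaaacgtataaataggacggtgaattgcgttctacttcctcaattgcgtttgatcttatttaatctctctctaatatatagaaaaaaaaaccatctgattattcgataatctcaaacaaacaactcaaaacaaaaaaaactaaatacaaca
Searched on both strands, AGGGG was present in 1331 of 6001 promoter windows of that length (22.2%). Of the 85 genes called higher that have a window, 45 held it (52.9%), as did 23 of 30 Msn2/4 genes (76.7%), 10 of 19 trehalose and glycogen genes (52.6%) and 2 of 14 genes called lower (14.3%). The Msn2/4 genes are listed as known to be under factors that bind AGGGG, so their share is not a result of these data. The 9 of them called are also among the genes called higher. HXK1 and HXT4 held no AGGGG in this window. A match is a run of letters in a window of fixed length and was not tested as a binding site, and a window without one says nothing of the factor.

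Among 16 genes of the TCA cycle, which feeds the respiratory chain, 3 rose and none fell, with a median of 1.02. Of all genes tested 1.45% were called higher. Unadjusted edgeR p-values were under 0.05 for 12 of the 16, beside 1097 of all 6337 genes tested. DESeq2 called 9 of the 16 higher, and a fit of only the 2 groups compared called 11. CIT1 (YNR001C), the mitochondrial citrate synthase, had 252 and 284 CPM in ethanol at 4 h, against 96.9 and 95.3 CPM in untreated cells (log2 fold change 1.48, SE 0.18, edgeR adjusted p = 0.00211). IDH1 (YNL037C), a subunit of isocitrate dehydrogenase, had 308 and 356 CPM in ethanol at 4 h and 139 and 124 CPM in untreated cells. LSC2 (YGR244C), a subunit of succinyl-CoA ligase, had 136 and 148 CPM in ethanol at 4 h and 76.2 and 74.4 CPM in untreated cells. Both rose without overlap, by 1.34 and 0.91. The succinate dehydrogenase gene SDH1 had a larger fold change of 1.70 but a wider error (SE 0.40, edgeR adjusted p = 0.0615). Without ethanol 4 h replicate 1 or 2, 1 TCA call was left in each case, and without either untreated library none. Library totals called 6, without LSC2.

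All 34 genes of the respiratory chain and ATP synthase had positive fold changes, with a median of 0.61. Unadjusted edgeR p-values were under 0.05 for 23 of them, beside 1097 of all 6337 genes tested. DESeq2 called 16 higher and a fit of only the 2 groups compared 21, against 3 with library totals. In the main fit 5 rose, beside 1.45% of all genes tested. NDI1 (YML120C), the internal NADH dehydrogenase, had 91 and 130.2 CPM in ethanol at 4 h, against 46.4 and 40.1 CPM in untreated cells (log2 fold change 1.36, SE 0.27, edgeR adjusted p = 0.0267). The other 4 belong to complex III, the cytochrome bc1 complex: QCR10, RIP1, CYT1 and QCR9, at 1.28, 0.95, 0.94 and 0.93. QCR9 (YGR183C) had close replicates, at 43.6 and 39.9 CPM in ethanol at 4 h and 22.4 and 21.4 CPM in untreated cells. Without ethanol 4 h replicate 1 the list had 2 calls, and without any other 1 of the 4 libraries it had none. With library totals NDI1 kept its call and the 4 complex III genes lost theirs. The 43 mitochondrial ribosome genes were positive throughout, with a median of 0.40, yet none passed, and 17 had an unadjusted p under 0.05. COX5B (YIL111W), the low-oxygen isoform of a cytochrome c oxidase subunit, read 37.4 and 48.8 CPM in ethanol at 4 h and 8.33 and 11.9 CPM in untreated cells, a rise of 2.08 (SE 0.28). It was the 1 call among 13 TIR, DAN and CWP mannoprotein and hypoxic genes, beside 1.45% of all genes tested called higher. The list's median of 0.29 was 0.08 without ethanol 4 h replicate 2 and 0.57 without untreated replicate 1. That median was 0.14 without untreated replicate 2 and -0.09 with the GC trend removed. CYC7 (YEL039C), the minor cytochrome c and on no list, read 14.1 and 13.8 CPM in ethanol at 4 h and 3.64 and 4.04 CPM in untreated cells, a rise of 1.85 (SE 0.24). Neither was called without untreated replicate 1, nor CYC7 without untreated replicate 2.

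CCAAT, the element of the Hap2/3/4/5 complex, was searched on both strands of the same windows. It was found in 41.8% of all 6001, in 30 of the 34 respiratory genes (88.2%), in 13 of the 16 TCA genes (81.3%) and in 37 of the 85 genes called higher (43.5%). CCAAT is known from respiratory genes, so its high share among them is not a result of these data. The window of NDI1, shown as the respiratory gene with the largest fold change, holds it 2 times, in capitals, on the printed strand (R64, chrXIII:29808-30107, minus strand).
NDI1: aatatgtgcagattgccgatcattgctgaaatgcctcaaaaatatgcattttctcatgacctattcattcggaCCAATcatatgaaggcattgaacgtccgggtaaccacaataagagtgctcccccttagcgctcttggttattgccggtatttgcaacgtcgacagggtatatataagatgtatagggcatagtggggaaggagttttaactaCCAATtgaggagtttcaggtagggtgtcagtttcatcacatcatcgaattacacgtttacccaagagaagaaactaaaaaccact

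The median of 26 glucose-repressed genes of gluconeogenesis, the glyoxylate cycle and alternative carbon use was 0.56. It was 0.33 without ethanol 4 h replicate 2 and 0.32 with a surrogate variable for shared replicate variation. Of the 26, 2 rose and none fell, beside 1.45% of all genes tested called higher. The 2 were GUT2 (YIL155C), the mitochondrial glycerol-3-phosphate dehydrogenase, at 27.2 and 34.9 CPM in ethanol at 4 h and 13.4 and 12.7 CPM in untreated cells, and CRC1 (YOR100C), the mitochondrial acetylcarnitine carrier, at 2.43 and 3.77 CPM in ethanol at 4 h and 1.05 and 0.630 CPM in untreated cells. Fold changes were positive for 24 of the 26, and 10 had an unadjusted edgeR p under 0.05, beside 1097 of all 6337 genes tested. DESeq2 called 7 higher and a fit of only the 2 groups compared 8, against 2 with library totals. FBP1 and ADH2, 2 markers of growth without glucose chosen after their values were seen, did not pass. FBP1 (YLR377C), which encodes fructose-1,6-bisphosphatase, had 6.63 and 7.41 CPM in ethanol at 4 h. It had 5.02 and 3.94 CPM in untreated cells, with an edgeR adjusted p of 0.296. ADH2 (YMR303C), the alcohol dehydrogenase that consumes ethanol, had 659 and 1334 CPM in ethanol at 4 h and 595 and 523 CPM in untreated cells (log2 fold change 0.83, edgeR adjusted p = 0.525). Its groups did not overlap, but the ethanol replicates differed by more than the groups' nearest libraries. ADH2 also stood far above FBP1 in untreated cells. Whether reads of related genes were counted for ADH2 was not tested, so it is a weak marker here. Neither GUT2 nor CRC1 was called without ethanol 4 h replicate 2 or either untreated library, GUT2 was also lost without ethanol 4 h replicate 1, and CRC1 with library totals. In glycolysis and fermentation none of 16 genes passed edgeR's test, and none had an unadjusted p under 0.05, with a median of 0.62 that varied from 0.06 to 0.95 over the settings tried. TDH3 (YGR192C), the main glyceraldehyde-3-phosphate dehydrogenase, had 16102 and 31687 CPM in ethanol at 4 h and 14071 and 11461 CPM in untreated cells. The ethanol replicates lay farther apart than the nearest libraries of the groups, and its log2 fold change of 0.90 had an SE of 0.67.

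Amino acid catabolism to fusel alcohols is the route by which yeast turns aromatic and branched amino acids into aroma compounds. Of its 8 genes 2 were called higher and 1 lower, beside 1.45% and 0.284% of all genes tested. The list's median was 0.52 and ran from 0.15 to 0.75 over the settings tried. ARO10 (YDR380W), the phenylpyruvate decarboxylase, had 82.2 and 102 CPM in ethanol at 4 h, against 28.8 and 27 CPM in untreated cells. ARO9 (YHR137W), the aromatic aminotransferase before it in the pathway, had 62.3 and 65.6 CPM in ethanol at 4 h and 23.9 and 24.5 CPM in untreated cells. They rose by 1.73 (SE 0.27) and 1.40 (SE 0.26) without overlap. ATF1 (YOR377W), the acetyltransferase that makes acetate esters of these alcohols, fell to 27.1 and 23.1 CPM in ethanol at 4 h, against 51.5 and 48.6 CPM in untreated cells (log2 fold change -0.99, SE 0.17, edgeR adjusted p = 0.0113). The other 5 of the 8 genes were not called. All 3 calls were lost with library totals as the scaling. Without ethanol 4 h replicate 1 only ARO10 was called, and without any other 1 of the 4 libraries none was.

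Lists of membrane, antioxidant and autophagy genes held single calls, where 92 of all 6337 genes tested were called higher (1.45%). A single call is given as a value of that gene and not as a result about its list. YRO2 (YBR054W), a plasma membrane protein related to the stress protein Hsp30, had 63.6 and 65.1 CPM in ethanol at 4 h, against 21.9 and 21.6 CPM in untreated cells. Its replicates were nearly equal in each group, and it rose by 1.56 (SE 0.21, edgeR adjusted p = 0.00324), the 1 call among 8 weak-acid response membrane proteins. PRX1 (YBL064C), the mitochondrial peroxiredoxin, was the 1 call among 16 genes of oxidative stress defence, at 68.9 and 79.4 CPM in ethanol at 4 h and 35.4 and 32.1 CPM in untreated cells. ATG39 (YLR312C), the receptor for autophagy of the nucleus, was the 1 among 18 autophagy genes, at 3.99 and 3.84 CPM in ethanol at 4 h and 1.38 and 1.05 CPM in untreated cells. None of these 3 was called with untreated replicate 1 or 2 left out, ATG39 and PRX1 were not called without ethanol 4 h replicate 2, and PRX1 was not called without ethanol 4 h replicate 1. YRO2 and PRX1 were also not called with library totals, nor PRX1 with matched identifiers only. Neither the 20 Hsf1 chaperone genes nor the 18 cell wall integrity and PIR genes held a call by edgeR, with medians of 0.38 and 0.53. Unadjusted p-values were under 0.05 for 7 and 4 of them, beside 1097 of all 6337 genes tested.

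**Figure D3:**
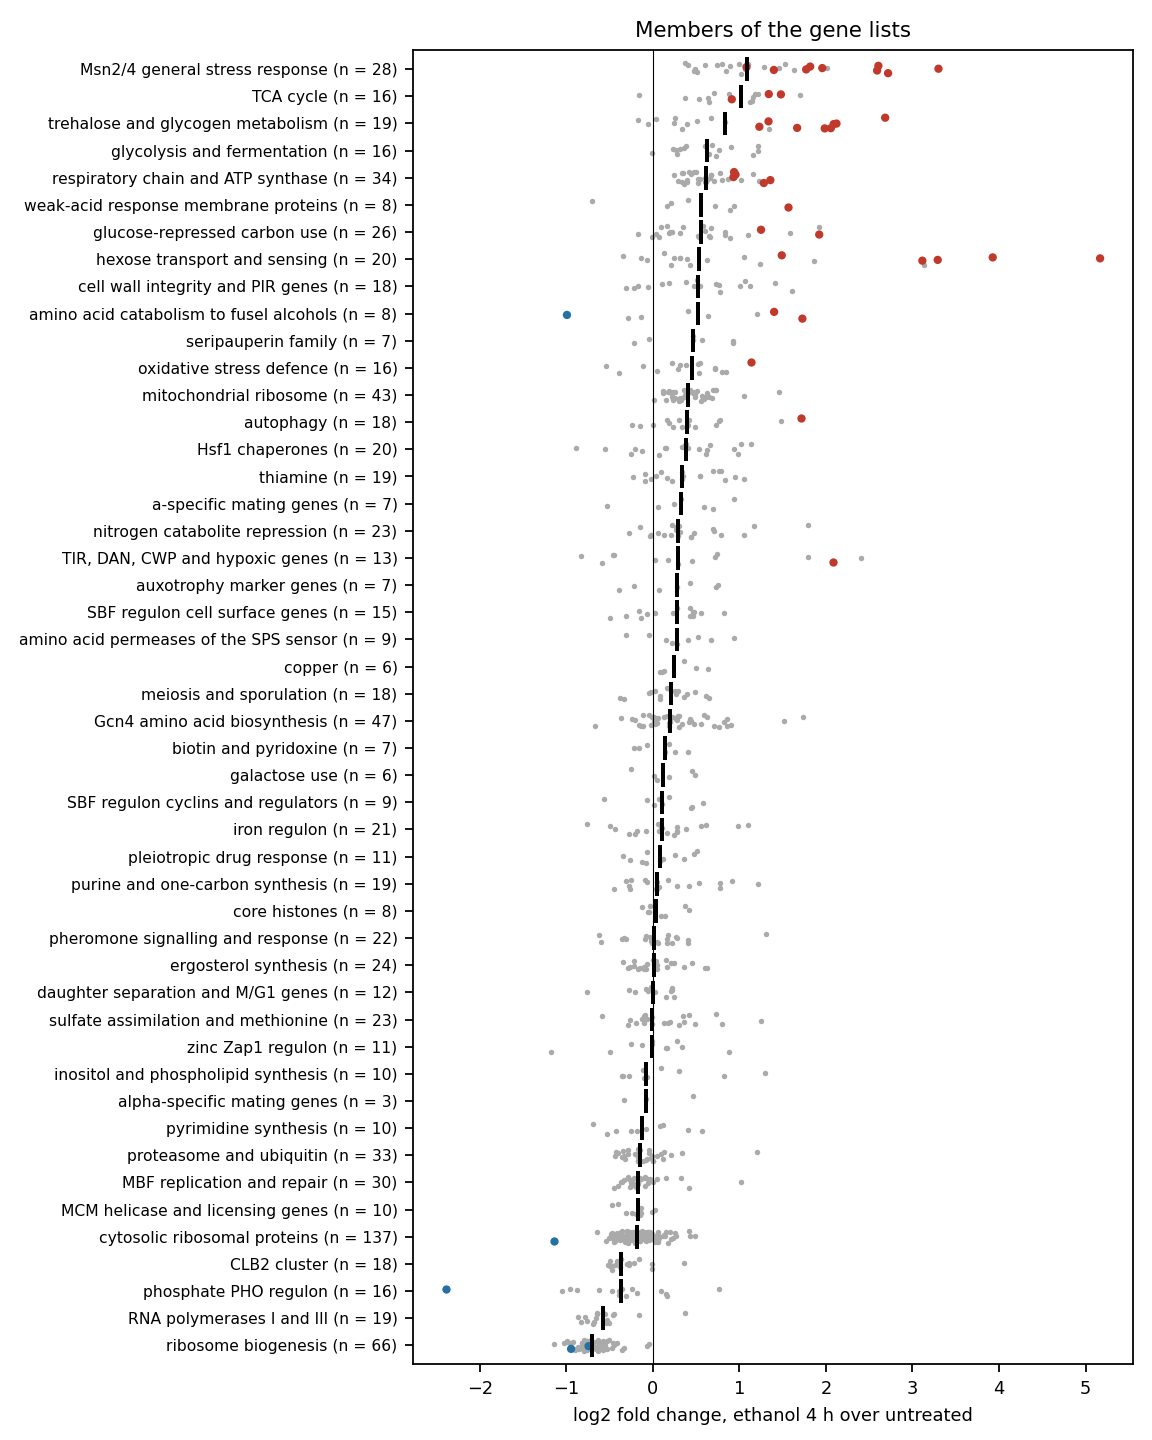
Log2 fold change of ethanol at 4 h over untreated cells (horizontal axis) for every tested member of the 48 gene lists, ordered by median with the highest at the top. Each point is 1 gene, red where called higher, blue where called lower and grey where not called, and the black bar is the list's median, from 1.09 for Msn2/4 genes to -0.70 for ribosome biogenesis.

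On the lower side, all 66 ribosome biogenesis genes had negative fold changes, with a median of -0.70. By edgeR 48 had an unadjusted p under 0.05, beside 1097 of all 6337 genes tested. Only 2 fell after adjustment, beside 0.284% of all genes tested called lower. NHP2 (YDL208W), a core protein of the RNA-guided pseudouridylation complex, had 195 and 153 CPM in ethanol at 4 h, against 331 and 339 CPM in untreated cells. NOP13 (YNL175C), a nucleolar RNA-binding protein, had 146 and 138 CPM in ethanol at 4 h, against 232 and 244 CPM in untreated cells. Their log2 fold changes were -0.95 (SE 0.21, edgeR adjusted p = 0.0414) and -0.74 (SE 0.17, edgeR adjusted p = 0.04996), and the groups overlapped for neither. NOP13 was barely past the threshold, and its call was also lost with RLE size factors, no filter, a mean CPM of at least 10 and matched identifiers only. No ribosome biogenesis gene was called with any 1 of the 4 libraries left out or with library totals, whereas 27 were lower by DESeq2. The list's median ran from -0.77 to -0.57 over all settings. Of 19 genes of RNA polymerases I and III none passed edgeR's test, 15 had an unadjusted p under 0.05, and the median was -0.57.

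Of 137 genes for proteins of the cytosolic ribosome 115 were negative, beside 3307 of all 6337 genes tested. In the main fit 1 fell, beside 0.284% of all genes tested. The median of -0.19 became -0.07 with replicate 1 of ethanol at 4 h left out, -0.30 with its replicate 2 left out and -0.10 with untreated replicate 1 left out. With the surrogate variable it was -0.38 and 61 were lower, and with library totals none was called. The gene that fell was RPS28B (YLR264W), a small-subunit protein gene, at 104 and 67.9 CPM in ethanol at 4 h and 196 and 186 CPM in untreated cells (log2 fold change -1.15, SE 0.24, edgeR adjusted p = 0.0371). It lay below untreated cells in both ethanol libraries and lost its call when ethanol 4 h replicate 2 or either untreated library was left out. Among genes on no list, LHP1 (YDL051W), an RNA-binding protein that stabilises tRNA precursors, ACL4 (YDR161W), the chaperone of ribosomal protein L4, and HPM1 (YIL110W), the methyltransferase that modifies ribosomal protein L3, also fell, by 0.87, 0.86 and 0.94. HPM1 read 59.99 and 50.01 CPM in ethanol at 4 h and 106 and 104 CPM in untreated cells. None of these 3 was called with any 1 of the 4 libraries left out or with library totals.

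GATGAG, the PAC element, was found on either strand in 19.1% of the 6001 windows, in 62 of the 66 ribosome biogenesis genes (93.9%), in 16 of the 19 RNA polymerase I and III genes (84.2%), in 16 of the 137 ribosomal protein genes (11.7%) and in 5 of the 14 genes called lower that have a window (35.7%). GATGAG is known from genes that build ribosomes, so its high share among them is not a result of these data. The window of NHP2, shown as the ribosome biogenesis gene that passed with the larger fold change, holds it 1 time, in capitals (R64, chrIV:87212-87511, plus strand).
NHP2: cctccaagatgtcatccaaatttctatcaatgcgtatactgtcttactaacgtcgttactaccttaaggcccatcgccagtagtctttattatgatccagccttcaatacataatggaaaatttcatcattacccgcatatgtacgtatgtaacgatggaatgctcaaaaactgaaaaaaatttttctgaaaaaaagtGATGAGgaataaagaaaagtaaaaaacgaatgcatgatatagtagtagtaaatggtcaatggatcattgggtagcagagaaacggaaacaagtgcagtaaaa

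The steepest decrease was that of a phosphate transporter. PHO89 (YBR296C), the sodium-coupled phosphate transporter of the plasma membrane, had 5.06 and 7.27 CPM in ethanol at 4 h, against 29.9 and 35 CPM in untreated cells. It fell without overlap, 5.26-fold lower (log2 fold change -2.39, SE 0.26, edgeR adjusted p = 0.00104). It was the only call among 16 PHO regulon genes, beside 0.284% of all genes tested called lower. The list's median was -0.37. The other transporter of the regulon, PHO84 (YML123C), had 761 and 1011 CPM in ethanol at 4 h and 817 and 770.2 CPM in untreated cells, with overlap and a log2 fold change of 0.16. VTC3 (YPL019C), a subunit of the vacuolar polyphosphate synthase, stood at 609 and 530.0 CPM in ethanol at 4 h and 1100.4 and 988 CPM in untreated cells, without passing (edgeR adjusted p = 0.0745). Further genes fell that belong to no list. FRE4 (YNR060W), a ferric reductase gene, had 27.4 and 36.9 CPM in ethanol at 4 h and 90.3 and 83 CPM in untreated cells, with a log2 fold change of -1.43 (SE 0.25). YOL014W, YOR385W and YDL241W had log2 fold changes of -1.73, -1.64 and -1.25. YOL014W stood at 9.13 and 12.7 CPM in ethanol at 4 h and 36.2 and 36.1 CPM in untreated cells, and kept its call with any 1 library left out. FRE4, YOR385W and YDL241W were not called with any 1 of the 4 libraries left out or with library totals.

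Several called identifiers have no match among the R64 genes, and their systematic names place most of them beside a called gene. Of 11 such calls 7 were higher and 4 lower. YFR052C-A, named next to HXK1, had 14.1 and 17.6 CPM in ethanol at 4 h and 1.05 and 1.10 CPM in untreated cells (log2 fold change 3.86). YER067C-A and YER066C-A, named next to RGI1, had log2 fold changes of 3.51 and 2.67. On the lower side YNL174W, named next to NOP13, stood at -0.92, YDL050C, named next to LHP1, at -0.91, and YOR309C at -0.99. YFR052C-A and YER067C-A kept their calls with any 1 library left out. YER066C-A lost it without either untreated library, YDL050C also without ethanol 4 h replicate 2, and YNL174W and YOR309C without any of the 4. Library totals left none of these last 3 called. The sources used here do not say whether counting used the strand, so reads of an overlapping gene and of these identifiers cannot be told apart. Without the unmatched identifiers 97 genes were called, 84 higher and 13 lower.

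Levels at the earlier times in ethanol come from libraries with fewer reads, and all comparisons with untreated cells share the untreated libraries, so values are given side by side. HXK1 averaged 6.14 ± 1.04 CPM in untreated cells, 34.5 ± 3.59 at 1 h, 59.4 ± 18.3 at 2 h and 220.1 ± 64.3 at 4 h of ethanol (SD, n = 2 each). GSY2 averaged 23.4 ± 0.553 CPM in untreated cells, 36.6 ± 1.65 at 1 h, 56.3 ± 2.06 at 2 h and 99.8 ± 8.92 at 4 h. Both means were higher at each later time. Against untreated cells, edgeR called 0 genes at 1 h of ethanol (397 at an unadjusted p under 0.05) and 3 at 2 h (0.0473%): HXK1 at 3.28, YBR032W at 2.08 and GSY2 at 1.26.

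Tested directly, ethanol at 4 h differed from ethanol at 1 h in 11 genes (0.174%), 10 higher (0.158%) and 1 lower (0.0158%). Those higher included HXK1 by 2.68 (SE 0.38, edgeR adjusted p = 0.0221), RGI1 by 2.48 (SE 0.41), YGP1 by 1.71 (SE 0.22) and GSY2 by 1.45 (SE 0.18). PHO89 was the lower one. It averaged 32.5 ± 3.60 CPM in untreated cells, 79.5 ± 25.5 at 1 h, 20.7 ± 2.89 at 2 h and 6.17 ± 1.56 at 4 h of ethanol. Its difference between 4 h and 1 h was -3.67 (SE 0.27, edgeR adjusted p = 0.000107). Without ethanol 4 h replicate 1 this comparison had 5 calls, and without ethanol 4 h replicate 2 or either 1 h library it had 1, PHO89. Between ethanol at 4 h and at 2 h edgeR called 0 genes (161 at an unadjusted p under 0.05), and DESeq2 called 8. A miss at this depth does not show that the levels were equal.

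**Figure D4:**
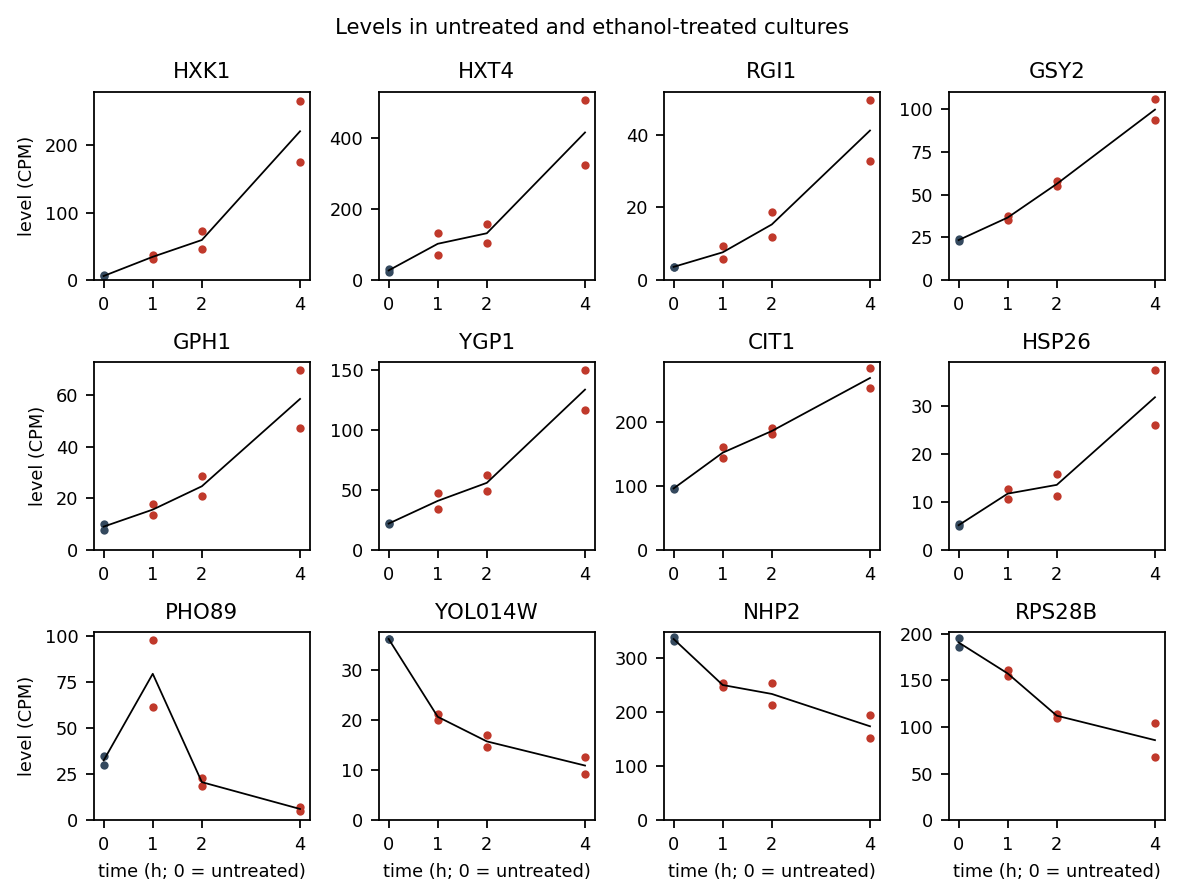
Level (CPM, vertical axis from 0) of 12 genes in untreated cells, drawn at 0 h in dark grey, and after 1, 2 and 4 h of ethanol in red (horizontal axis, h), with 1 point per library and a line through the means of 2. HXK1, RGI1 and GSY2 have their highest mean at 4 h, while PHO89 has its highest mean at 1 h and its lowest at 4 h.

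Cells given estradiol for 4 h, in which SWI4 is induced, were compared directly with cells given ethanol for 4 h. Estradiol differed from ethanol at 4 h in 119 genes (1.88%), 75 higher (1.18%) and 44 lower (0.694%). With any 1 of these 4 libraries left out the count was between 43 and 49. YGP1 had 15.2 and 18.8 CPM in estradiol at 4 h, against 117 and 151 CPM in ethanol at 4 h, a difference of -2.98 (SE 0.23, edgeR adjusted p = 4.4e-05). YRO2 had 10.1 and 11.8 CPM in estradiol at 4 h, against 63.6 and 65.1 CPM in ethanol at 4 h, a difference of -2.55 (SE 0.22). In both genes the estradiol libraries lay below the untreated ones, which read 22.7 and 21.8 CPM for YGP1 and 21.9 and 21.6 CPM for YRO2. Between estradiol at 4 h and untreated cells YRO2 passed (-0.99, edgeR adjusted p = 0.0136) and YGP1 did not (-0.39, edgeR adjusted p = 0.28). HSP12 was higher with estradiol, at 18 and 27.9 CPM in estradiol at 4 h, against 2.28 and 3.64 CPM in ethanol at 4 h (2.95, SE 0.31). HXK1 had 287 and 396 CPM in estradiol at 4 h and 175 and 266 CPM in ethanol at 4 h, a difference that did not pass (0.63, SE 0.35, edgeR adjusted p = 0.844). HXT4 read 300.4 and 483 CPM in estradiol at 4 h, against 325 and 505 CPM in ethanol at 4 h, and NHP2 202 and 176 CPM in estradiol at 4 h, against 195 and 153 CPM in ethanol at 4 h, with overlap in both. PHO89 fell further, to 1.92 and 2.05 CPM in estradiol at 4 h, against 5.06 and 7.27 CPM in ethanol at 4 h (-1.63, SE 0.29, edgeR adjusted p = 0.0136).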

How the data were processed

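Polyadenylated RNA was sequenced in 14 yeast libraries, 2 for each of 7 groups, and reads were aligned with Bowtie2 2.2.5, per the submitters' processing notes. The deposited table holds raw counts per reading frame from the authors, with no normalization. Counting tool, genome build and use of strand: not given in the sources used here. Gene names and promoter windows came from the RefSeq R64 assembly, which matched 5999 of 6670 identifiers. No gene coordinates are given, apart from the promoters printed.

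The analysis used edgeR 4.0.16 in R 4.3.3. TMM factors scaled the libraries, filterByExpr with a minimum count of 10 kept 6337 genes, and a robust quasi-likelihood model with a term per group took in all 14 libraries. It left 7 residual degrees of freedom, and the biological coefficient of variation was 0.206. All tests were 2-sided, with Benjamini-Hochberg adjustment of p-values over all genes tested per comparison, with calls made below 0.05. Each SE was taken from the fold change and its F statistic. Depth, at 12262238 to 17314913 counts in the libraries of the main comparison, sets the counting error, and levels under about 1 CPM rest on few reads.

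There were 48 disjoint gene lists with 1008 members, 986 of them tested, each described by its counts and median and not tested as a set. The members and lists were chosen with earlier results of these data known. Named by rule were the 12 highest and 12 lowest called genes with an average log2 CPM of at least 3 and no overlap between groups, up to 4 called members of each list by smallest p, the 2 most abundant members of a list with fewer than 2 calls, SWI4, CLN1, CLN2, CLN3 and WHI5, and the 4 highest and 4 lowest in each other comparison. Chosen after their values were seen were ACL4, ADH2, ATH1, CTT1, CYC7, DCS2, FBP1, GLC3, GLG1, GLK1, HXK2, HXT1, LHP1, MSC1, MSN4, NTH1, PNC1, RIP1, RTC3, SDH1, TPS2, TSL1 and YBR032W.

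Alternatives were RLE size factors, library totals, no filter, a mean CPM of at least 10, matched identifiers only, a replicate block, only the 2 groups compared, DESeq2 1.42.0 and omission of single libraries. Settings added after the data were seen were 1 surrogate variable from sva 3.50.0, removal of a loess trend on gene length or GC content, and a crossed block. The labels give no pairing by replicate number, so the main fit has no block. In the data, the replicate differences of untreated cells and of ethanol at 1 h ran opposite to those of all other groups.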

Additional observations from a re-analysis of the deposited data

Results flagged for a closer look

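Of the 110 genes called between ethanol at 4 h and untreated cells, 12 also differed between estradiol and ethanol at 4 h in the direct edgeR test, 5 higher and 7 lower with estradiol. For the 5 of them that the naming rule covers, the difference, estradiol over ethanol on the log2 scale, was -2.98 for YGP1 (adjusted p = 4.4e-05), -2.55 for YRO2 (adjusted p = 8.19e-05), 2.95 for HSP12 (adjusted p = 0.00043), -1.63 for PHO89 (adjusted p = 0.0136) and -1.42 for YDL241W (adjusted p = 0.0078). In changes from untreated cells, which share the untreated libraries, YGP1 stood at -0.39 with estradiol and 2.59 with ethanol, and YRO2 at -0.99 with estradiol and 1.56 with ethanol.

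Of the 110, 10 also differed between ethanol at 4 h and ethanol at 1 h, 9 higher and 1 lower at 4 h. For the 6 of them that the naming rule covers, the difference, 4 h over 1 h on the log2 scale, was 2.68 for HXK1 (edgeR adjusted p = 0.0221), 2.55 for YFR052C-A (0.044), 2.48 for RGI1 (0.0406), 1.71 for YGP1 (0.0111), 1.45 for GSY2 (0.0106) and -3.67 for PHO89 (0.000107). PHO89 stood at -2.39 after 4 h and 1.28 after 1 h relative to untreated cells. The 1 h libraries were shallower than the 4 h ones, and the part of depth in these differences was not tested.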

How the results depend on the processing

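Of 47 named genes called between ethanol at 4 h and untreated cells, 6 kept the call under all 15 other settings, and none changed direction in any it had a value in. YFR052C-A and YER067C-A kept theirs in the 11 settings that gave them a value. Library totals kept 27 of the 47, while DESeq2, the replicate block, the 2 groups alone and the surrogate variable kept all 47. The number called, 110 as reported, depended strongly on the setting. It was 486 by DESeq2 (302 higher, 184 lower), 853 with only the 2 groups in the fit (541 higher, 312 lower), 1273 with a surrogate variable (658 higher, 615 lower) and 354 with the GC trend removed (216 higher, 138 lower). Leaving out 1 library gave 10 to 71. For ethanol at 4 h against 2 h, where 0 were called, DESeq2 gave 8, the 2 groups alone 6, the surrogate variable 43 and GC removal 3. For ethanol at 4 h against 1 h, with 11 called, library totals gave 17, a mean CPM of at least 10 gave 6, DESeq2 60, the 2 groups alone 1, the surrogate variable 261, GC removal 26, and leaving out 1 library 1 to 5. For estradiol at 4 h against ethanol at 4 h, with 119 called, DESeq2 gave 208, the surrogate variable 649, GC removal 202, and leaving out 1 library 43 to 49. The cause was not tested.

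With the replicate number as a block, 175 genes were called in the main comparison (135 higher, 40 lower), and 506 when only its 4 libraries were fitted. The numbers share no stated culture or day, and the replicate differences of the 2 groups correlated at -0.51 over 6337 genes. Over the 21 pairs of the 7 groups this correlation was positive in 11 and negative in 10, from -0.69 to 0.74. The signs split the groups into untreated cells with ethanol at 1 h, which correlated at 0.60, and all the others. Within each set the correlation was positive, and between the sets it was negative throughout. It was 0.74 for estradiol and ethanol at 4 h, where the block called 127. A crossed pairing of the same 4 libraries called 2645. Fold changes correlated with gene length at -0.24 (Spearman, 5795 genes), and removing that trend gave 150 calls. The list medians of glycolysis, Gcn4 targets and the ergosterol genes were among those that shrank or changed sign with the surrogate variable, at 0.06, -0.07 and -0.20, against 0.62, 0.20 and 0.01 as reported.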

Other observations

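Several lists held no edgeR call between ethanol at 4 h and untreated cells and are given as values. Over all 6337 genes tested, 1097 had an unadjusted p under 0.05, and 3030 fold changes were positive and 3307 negative. The 18 CLB2 cluster genes, which act at mitosis, had a median log2 fold change of -0.37 with 17 negative members, 1 of them at an unadjusted p under 0.05, and the 33 proteasome and ubiquitin genes a median of -0.15 with 2 at that p. CLB2 cluster medians ran from -0.59 to -0.08 over the settings tried. The 47 Gcn4 amino acid biosynthesis genes had a median of 0.20 and 8 at an unadjusted p under 0.05, and the sign turned with the surrogate variable. The 24 ergosterol synthesis genes had a median of 0.01 and none at that p. Among 22 pheromone signalling and response genes 11 were positive and 11 negative, with 2 at that p.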
